A study of Zea mays with 4 samples.

Results

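The miR171 family of maize (Zea mays) was followed in pollen and silks of the inbred line B73 before and after pollination. Members were all entries of known miRNAs whose name begins with zma-miR171. There were 13 such names with 8 distinct mature sequences, of 161 known names with 72 distinct sequences in the table. Entries with an identical sequence were taken once, and are written here with a slash, as in miR171d/e/i/j. Small RNA was sequenced from 4 tissues of B73 plants, with 1 library per tissue. Mature pollen (MP) was shaken from tassels, and germinated pollen (GP) was the same kind of pollen after 30 min in liquid medium, where more than 90% of grains germinated. Mature silks (MS), the long styles and stigmas of the maize pistil, were cut when about 5 cm stood out of the bracts. Pollinated silks (PS) were such silks 30 min after an excess of pollen was applied and loose pollen was shaken off, so PS holds RNA of silk and of the pollen and tubes attached to it. A difference between tissues can come from fewer cells of a type or from less RNA per cell, which cannot be told apart in bulk RNA.

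miR171 is an ancient plant miRNA family that guides Argonaute to mRNAs of GRAS transcription factors. In Arabidopsis its targets are the HAIRY MERISTEM type GRAS proteins, which keep shoot meristem cells undifferentiated and act on branching and chlorophyll synthesis. Plant miRNAs pair with their targets almost along their whole length, and the target is cut opposite the bond between bases 10 and 11 of the miRNA, so the base at which a mature miRNA starts sets where it cuts.

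The 8 sequences fell into 2 frames, and they are shown because the members with the largest change between silks, miR171b and miR171f, differ from the main form miR171d/e/i/j by their start and end alone. Capitals mark the seed, bases 2 to 8 counted from the 5′ end, and T stands for U as in the deposited table. In the first frame were 5 sequences that start at the same base as miR171d.
zma-miR171d, e, i and j: tGATTGAGccgtgccaatatc
zma-miR171a: tGATTGAGccgcgccaatat
zma-miR171n: tGATTGAGccgcgccaatatc
zma-miR171c: tGACTGAGccgtgccaatatc
zma-miR171l and m: gGATTGAGccgcgtcaatatc
In the other frame were 3 sequences that start 3 nt further along.
zma-miR171b: tTGAGCCGtgccaatatcac
zma-miR171f: tTGAGCCGtgccaatatcaca
zma-miR171h and k: gTGAGCCGaaccaatatcact

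miR171d/e/i/j, miR171a, miR171n and miR171l/m shared the seed GATTGAG. miR171c alone had GACTGAG, through the change T4C against miR171d (positions counted from 1 at the 5′ end of miR171d). miR171a and miR171n carried T12C, and miR171l/m carried T1G, T12C and C14T. miR171b and miR171f had 0 differences from miR171d over the 18 nt that they share with it, so only the start and the end set them apart. miR171h/k had the seed TGAGCCG of miR171b and miR171f, and differed from miR171f by T1G, T9A, G10A and A21T (positions from the 5′ end of miR171f). A search of the other known sequences and of the 109 predicted entries found 0 with any of these seeds. RefSeq lists 14 maize MIR171 genes, and 13 of them have a name in the table, while MIR171g was not analysed here.

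Values are read counts and TPM, here reads scaled to a fixed total of clean reads per library, without regard to length. The libraries held 3638941 (MP), 10575042 (GP), 5775303 (MS) and 5205129 (PS) clean reads, so that 1 read equals 0.275, 0.0946, 0.173 and 0.192 TPM in that order. Reads of known miRNAs, each sequence counted once, were 0.417% (GP) and 0.546% (MP) of the total in pollen, against 3.22% (MS) and 3.60% (PS) in silks. A count of 0 allows up to 3 reads, which is 0.824 TPM in MP and 0.284 TPM in GP. Since each tissue had 1 library, every test below compares libraries and not conditions, and no difference has a replicate library. Outside the sequencing, the study measured miR171b and miR171f together in MS and PS by stem-loop real-time PCR and by northern blot. It reports patterns like those of its sequencing. The primer it lists for this PCR matches miR171d/e/i/j at every base but the first. The PCR may thus also have read miR171d/e/i/j. Whether the PCR or the blot told these forms apart is not stated in the sources used here. Intervals are exact at 95% and cover counting error only, since each tissue had 1 library. PCR copies were not told apart, so even the counting error may be understated.

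The authors' counts include reads that differ by up to 2 bp in length from the named sequence, so near neighbours can share reads. By a match of at least 18 nt with starts no more than 2 nt apart, miR171b was paired with miR171f, and miR171a with miR171n. Reads between miR171d and miR171b or miR171f, whose starts lie 3 nt apart, may also be in more than 1 count, and could not be separated. Counted once, by the larger of each of the 2 pairs, the family had 12 (MP) and 47 (GP) reads in pollen, and 3843 (MS) and 15688 (PS) in silks. Its level was 3.30 TPM (1.70 to 5.76) before and 4.44 TPM (3.27 to 5.91) after pollen germination, and 665 TPM (645 to 687) before and 3014 TPM (2967 to 3061) after pollination of silks. The family was thus a trace in both pollen libraries, a plain signal in mature silks, and higher again in pollinated silks. Of the 8 sequences, 1 had a read in MP, 4 in GP, and all 8 in MS and in PS. Its rank among the 27 known families was 8 (MP), 7 (GP), 8 (MS) and 3 (PS). Set against the total over all distinct known sequences, its reads were 0.0604%, 0.107%, 2.07% and 8.37% in that order. That total still holds both sequences of each pair, unlike the family count. With all 8 sequences in the family count as well, the share was 2.07% in MS and 11.6% in PS. The ratio of PS to MS was 4.53 (4.37 to 4.69), and that of GP to MP was 1.35 (0.704 to 2.79), an interval that includes 1. If every read of miR171b were also in the count of miR171d/e/i/j, the family would hold 3801 reads in MS and 9562 in PS (658 and 1837 TPM). The ratio would then be 2.79 (2.69 to 2.90). Sharing to unlike degrees in MS and PS was not computed.

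**Figure D1:**
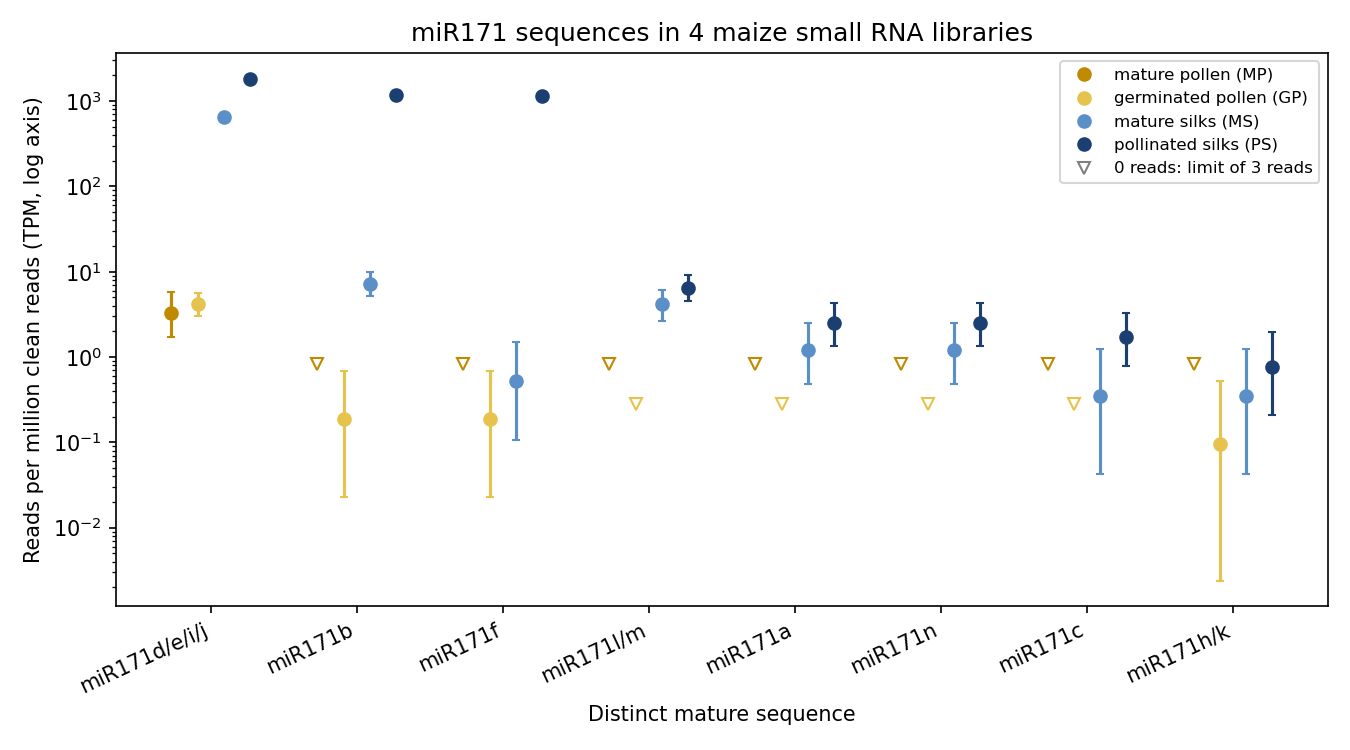
Level of each distinct miR171 sequence in TPM on a log axis, with points for the 4 libraries and bars for the exact 95% interval of the count; open triangles mark 0 reads and stand at the limit of 3 reads. miR171d/e/i/j is high in MS and PS, whereas miR171b and miR171f are high in PS only, at 1177 and 1160 TPM.

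miR171d/e/i/j, the form present in every library, was counted at 12 (MP), 44 (GP), 3766 (MS) and 9502 (PS) reads. As levels these were 3.30, 4.16, 652 and 1826 TPM. Its rank among known sequences went from 14 (MP) and 12 (GP) to 9 (MS) and 5 (PS), and it made up 98.0% of the family in MS but 60.6% in PS. The 4 names that share the sequence had slightly different counts, from 3760 to 3766 in MS and from 9472 to 9502 in PS, a spread of 0.159% and 0.316%.

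The other sequences of this frame were rare. miR171l/m had 0 reads in both pollen libraries, 24 in MS and 34 in PS (4.16 and 6.53 TPM). miR171a and miR171n each had 0 reads in pollen, 7 in MS and 13 in PS (1.21 and 2.50 TPM). miR171c had 0 reads in pollen, 2 in MS and 9 in PS (0.346 and 1.73 TPM). All of them were lower than miR171d/e/i/j in either silk library, with intervals that did not overlap its interval.

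miR171b, in the frame 3 nt further along, was counted at 0 (MP), 2 (GP), 42 (MS) and 6126 (PS) reads. As levels these were 0, 0.189, 7.27 and 1177 TPM. miR171f, 1 nt longer, was counted at 0 (MP), 2 (GP), 3 (MS) and 6037 (PS) reads, which are levels of 0, 0.189, 0.519 and 1160 TPM. Both therefore went from rank 29 and 46 among known sequences in MS to rank 6 and 7 in PS. miR171h/k, of the same frame and seed, was at 0 (MP), 1 (GP), 2 (MS) and 4 (PS) reads, the last of which is 0.768 TPM, so the 3 sequences of this frame were not alike.

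To see which members differed between the libraries of silks before and after pollination, PS was compared with MS. A sequence was called higher at a log2 ratio above 1.5 with over 10 times the count of either MP or GP, and lower at a log2 ratio below -2, which are the limits of the study for silks. The study states a limit of p under 0.01 for pollen, and it was applied here to silks too, in a 2-sided Fisher's exact test. miR171b was 162-fold higher in PS (120 to 225), a log2 ratio of 7.34, and miR171f was 2233-fold higher (764 to 10830), a log2 ratio of 11.12. They were the only members called, 2 of 8, while 6 of the 66 known sequences with a read in either library were called higher (9.09%) and 4 were lower. Calls are counted by sequence here and below, so a pair taken to share reads enters as 2, and these 2 calls are not separate results. miR171f and miR171b had the largest log2 ratios of the 52 known sequences for which a ratio could be given. Next came miR169f/g/h with 18 reads against 2 (log2 ratio 3.32) and the 11-name sequence miR395a/b/d/e/f/g/h/i/j/n/p with 324 against 42 (log2 ratio 3.10). The median log2 ratio was 1.32 over the 8 members and 0.37 over all 52.

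miR171d/e/i/j was 2.80-fold higher in PS (2.70 to 2.91). Its log2 ratio of 1.49 lay just under the limit of 1.5, so it was not called, although its interval did not include 1. miR171c was 4.99-fold higher (1.03 to 47.5), which rests on 9 reads against 2 (Fisher's exact test, p = 0.0313, adjusted p = 0.0543). It passed the limits on ratio and pollen counts and missed only the limit on p, so that without this limit 3 members would be called, with 7 known sequences higher and 4 lower. For miR171a and miR171n the ratio was 2.06 (0.764 to 6.10; Fisher's exact test, adjusted p = 0.198), for miR171l/m 1.57 (0.905 to 2.77; exact test, adjusted p = 0.151), and for miR171h/k 2.22 (0.318 to 24.5). Each of these last intervals includes 1. At 2 to 34 reads per library they are wide, and only that of miR171l/m ended below the 2.80-fold of miR171d/e/i/j. With scaling by the median ratio of DESeq2 instead of clean reads, 4 members were called, since miR171d/e/i/j came to a log2 ratio of 1.93 and miR171c to 2.77. The known sequences then split into 11 higher and 3 lower, against 4 and 4 under TMM or the total of known reads.

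**Figure D2:**
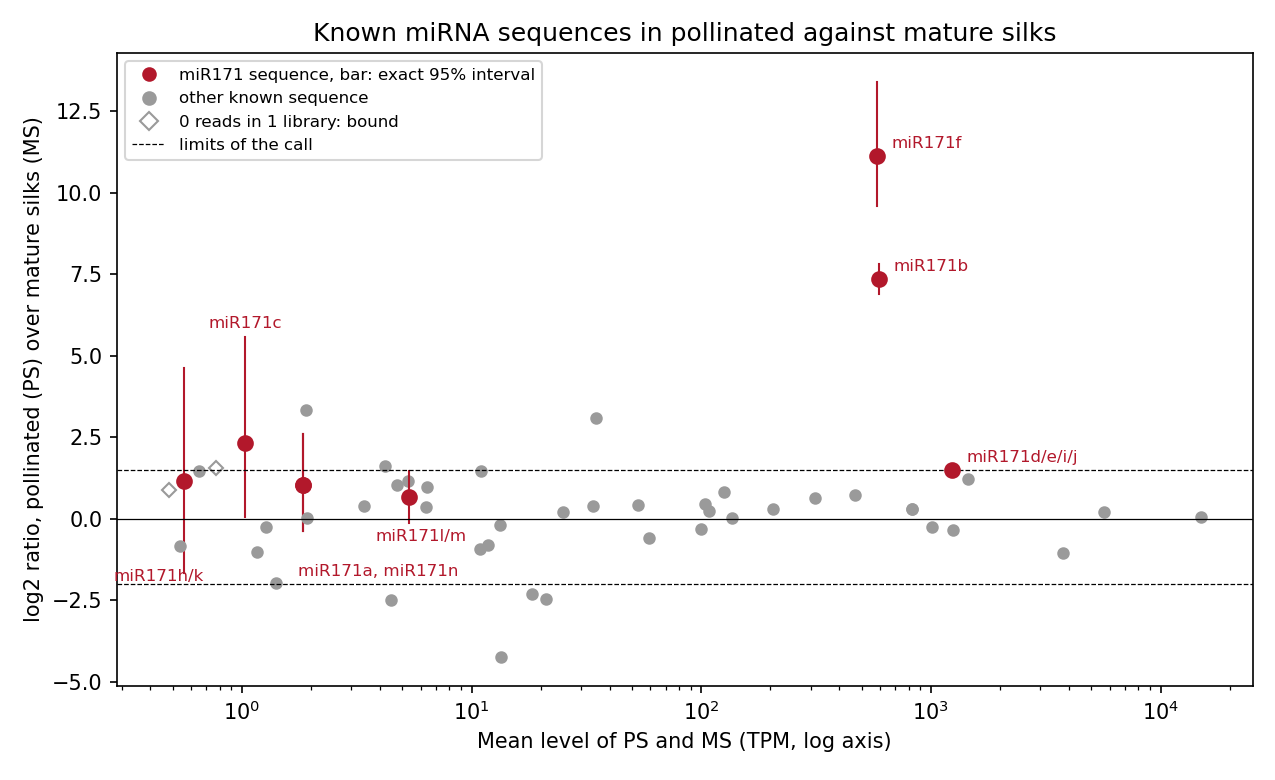
The log2 ratio of PS to MS against the mean level of both libraries (TPM, log axis) for the 52 known sequences with a ratio; miR171 sequences are red with their exact 95% intervals, and dashed lines are the limits of 1.5 and -2. miR171f (11.12) and miR171b (7.34) lie above all others, and miR171d/e/i/j (1.49) lies at the upper limit.

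The change in make-up was then measured within each library, where scaling plays no part. Relative to miR171d/e/i/j, miR171b was 57.8 times more abundant in PS than in MS (42.6 to 80.5), and miR171f 798 times (272 to 3871). The share of miR171b among miR171b and miR171d/e/i/j reads was 1.10% in MS (0.796 to 1.49) and 39.2% in PS (38.4 to 39.97). Relative to miR171d/e/i/j, miR171l/m came to 0.561 (0.323 to 0.991), which is lower in PS, by an interval whose upper end is close to 1. The ratios were 0.736 (0.273 to 2.18) for miR171a and miR171n, 1.78 (0.369 to 16.97) for miR171c and 0.793 (0.114 to 8.77) for miR171h/k. Relative to the main form, only miR171b and miR171f thus had a higher share in PS by an interval that excludes 1.

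**Figure D3:**
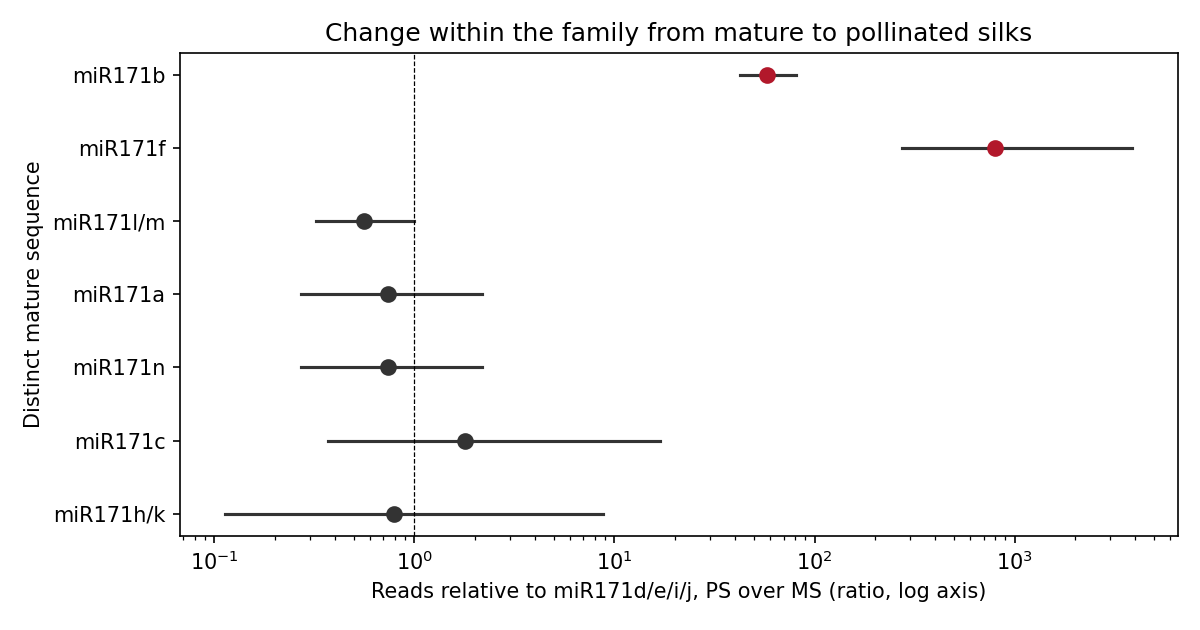
Reads of each sequence relative to miR171d/e/i/j, as the ratio of PS to MS on a log axis, with exact 95% intervals as bars; the dashed line is no change. miR171b (57.8) and miR171f (798) lie far to the right, and the other 5 lie between 0.561 and 1.78.

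By frame, the sequences that start 3 nt later gave 0 of 12 family reads (MP) and 3 of 47 (GP; 6.38%, 1.34 to 17.5) in pollen. They gave 44 of 3843 in mature silks (1.14%, 0.833 to 1.53) and 6130 of 15688 in pollinated silks (39.1%, 38.3 to 39.8). The low total in MP allows a share of up to 26.5% (exact interval), so pollen cannot be placed against MS at this depth, but both pollen shares have upper ends under the share in PS. In level, this frame was at 0 TPM in MP, 0.284 in GP and 7.62 in MS against 1178 in PS. The level of this frame was thus far lower in both pollen libraries and in the unpollinated silks than in PS. The source of these reads in PS was not tested. miR171d/e/i/j was 1173 TPM higher in PS than in MS, and miR171b 1170 TPM higher. Reads may be in both counts, so these differences, and the shares of the frames above, are those of the deposited counts and not of separate reads.

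**Figure D4:**
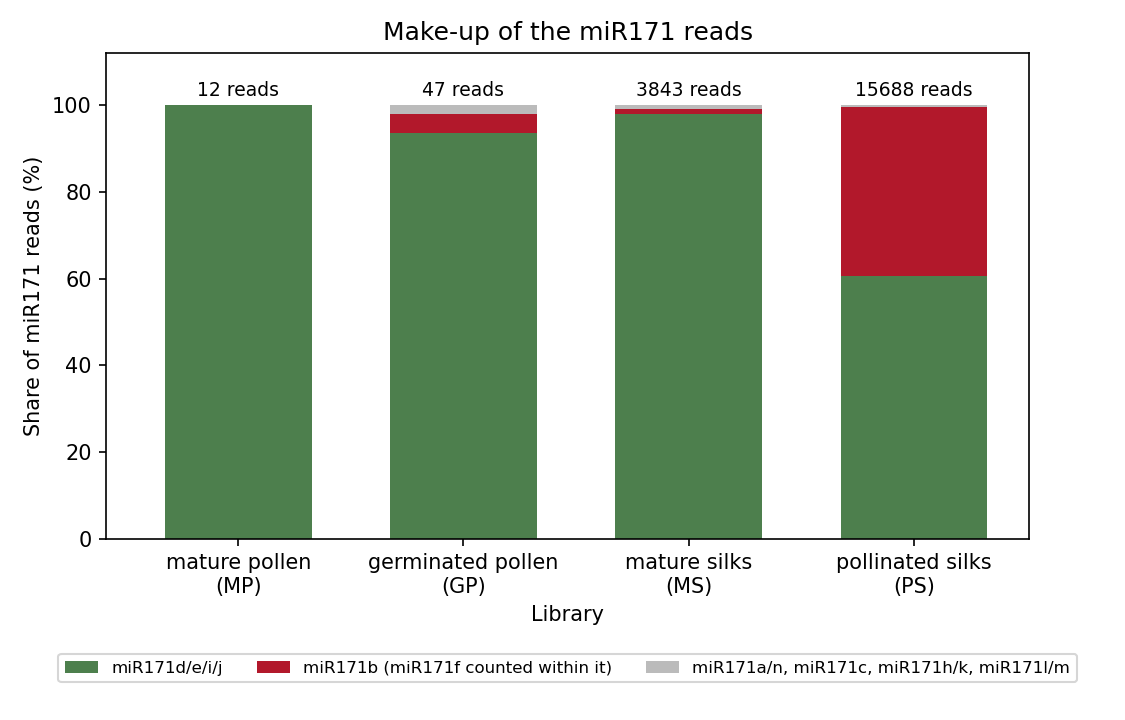
Share of the family's reads, in percent, held by miR171d/e/i/j, by miR171b (with miR171f counted within it) and by the rest, in each library; the number above each bar is the family's read count. miR171b is 1.09% of the bar in MS and 39.0% in PS.

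miR171b and miR171f differed from each other in MS but hardly in PS. In MS, 39 of the 42 reads of miR171b (92.9%) were not counted for miR171f, against 89 of 6126 (1.45%) in PS and 0 of 2 in GP. If the allowance of 2 bp is taken at either end, a read starting 1 or 2 nt after miR171d and ending where it ends falls within the reach of both miR171d and miR171b, but not of miR171f. A read starting there and ending 1 or 2 nt later falls within the reach of all 3. How the allowance was applied is not given in the sources used here, and the part of such reads in the counts of any library was not tested. In MS they can be at most the 42 reads of miR171b, but in PS up to all 6126. miR171f, whose MS count was 3, is by this reckoning the less exposed of this pair to reads of miR171d in MS. In PS up to all 6037 of its reads could be shared, so there the pair is exposed almost alike.

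The spread among members was compared with that of other families, over sequences with at least 10 reads in PS or MS. In miR171 the log2 ratios of PS to MS spanned 10.47 over 6 sequences, the widest of 11 families, followed by miR159 at 2.70 and miR169 at 2.68. Without miR171b and miR171f the span was 0.83 over 4 sequences.

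Pollen germination was asked about by comparing GP with MP. Only 4 of the 8 members had a read in either library, and 0 of them were called, with 9 of 51 known sequences called in either direction (17.6%), 2 higher and 7 lower. With TMM scaling there were 1 higher and 13 lower, and with the median ratio 3 higher and 6 lower, and 0 members were called by either. miR171d/e/i/j was at 4.16 TPM in GP and 3.30 in MP, a ratio of 1.26 (0.655 to 2.62; Fisher's exact test, adjusted p = 0.748). Its log2 ratio of 0.34 became -0.16 under TMM, so no direction can be given. miR171b and miR171f had 2 reads each in GP and miR171h/k had 1, against 0 in MP, which is within the 3 reads set for a count of 0.

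Silks were then set against pollen. In MS against MP, 3 of 8 members were higher, with 32 of 60 known sequences higher (53.3%). miR171d/e/i/j was 198-fold higher in MS (113 to 383). With the 0 reads of MP set to 3, miR171b was 8.82-fold higher (Fisher's exact test, p = 1.65e-09) and miR171l/m 5.04-fold (Fisher's exact test, p = 9.16e-06). The exact intervals, from the counts as they are, began at 6.86 for miR171b and 3.79 for miR171l/m. The other 5 members had 2 to 7 reads in MS and 0 in MP, and were not called.

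In PS against GP, 7 of 8 members were higher, both pairs taken to share reads among them, with 41 of 69 known sequences higher (59.4%). miR171d/e/i/j was 439-fold higher in PS (327 to 604), miR171b 6223-fold (1722 to 51397) and miR171f 6133-fold (1697 to 50650), the last pair against 2 reads each in GP. With the 0 reads of GP set to 3, miR171l/m was 23.0-fold higher, miR171a and miR171n 8.80-fold and miR171c 6.09-fold. Their exact intervals, from the counts as they are, began at 17.7, 6.19 and 4.01 in that order. miR171h/k, with 4 reads against 1, was not called (ratio 8.13, 0.804 to 400.2; Fisher's exact test, adjusted p = 0.0640). Both comparisons moved with the scaling, and known miRNAs held a larger share of clean reads in silks than in pollen, as given above. Scaled to the total of known reads, by TMM or by the median ratio, miR171d/e/i/j alone was called in MS against MP, and miR171d/e/i/j, miR171b and miR171f in PS against GP. Over all known sequences, 32 higher and 1 lower in MS against MP became 12 to 15 higher and 5 lower, and 41 higher and 2 lower in PS against GP became 19 to 23 higher and 12 lower.

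The known sequences of other families nearest in profile over the 4 libraries were found by the root mean square difference of centred log2 TPM, among 40 candidates with at least 10 reads in 1 library. For miR171b the nearest was miR395a/b/d/e/f/g/h/i/j/n/p, a family known for sulfate assimilation, at 1.94, with 0 reads in both pollen libraries, 42 in MS and 324 in PS. The copper-responsive miR408/b followed at 2.44 and miR169a/b, of a family that targets NF-YA factors, at 2.48. No profile was close to that of miR171b, since the nearest still differed by 1.94 on the log2 scale. For miR171d/e/i/j the nearest were miR319a/b/c/d at 0.93, miR164f at 1.18 and miR169c/r at 1.26. In MP and GP these had 1 and 1, 0 and 0, and 1 and 3 reads in that order. A 0 was set to 3 reads here, above a count of 1, so the pollen part of these distances is weak. On a scale of log2(TPM + 1) the same 3 sequences were nearest to miR171b, but for miR171d/e/i/j only miR169c/r was still among the nearest 3.

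Other families with targets among leaf and meristem regulators served as a list for comparison, namely miR164 (NAC factors), miR166 (HD-ZIP III factors), miR319 (TCP factors) and miR396 (growth-regulating factors). Of their 13 distinct sequences, 0 were called in PS against MS among the 12 with reads, with a median log2 ratio of 0.19. Over all known sequences, 9.09% were called higher and 6.06% lower, with a median of 0.37. In GP against MP, 0 were higher and 2 lower of 10, with a median of -1.45, beside 3.92% higher and 13.7% lower over all. In MS against MP, 9 of 12 were higher with a median of 4.11, beside 53.3% and a median of 3.18 over all. In PS against GP, 10 of 13 were higher with a median of 5.30, beside 59.4% and 3.19. Scaled by clean reads, most of the list was thus higher in silks, as were most known sequences. The other scalings lowered every log2 ratio of silks to pollen, and calls of the list under them are not given. None of the list passed the limits between MS and PS.

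The deposited table lists predicted target sites, which come from sequence alone and carry no measurement of the target RNA. Apart from it, the study measured selected predicted targets by real-time RT-PCR. Its primers include those for GRMZM2G011947, GRMZM2G051785 and GRMZM5G825321. For most of its measured targets it reports a change opposite to that of the miRNA, and the exceptions it names are other genes. Those measurements were not used here. The 8 sequences had sites in 19 genes with 24 transcripts, and the study annotates 12 of these genes as GRAS family transcription factors. RefSeq matched 7 of the 19, of which 2 GRAS genes, GRMZM2G011947 and GRMZM2G418899, are entered as pseudogenes, and GRMZM2G037792 has the synonym GRAS79. The RefSeq assembly differs from the build of the table, so no genome coordinates are given.

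A core of 8 genes, 6 of them GRAS, was listed for every sequence but miR171h/k. miR171d/e/i/j had sites in 13 genes and miR171b in 15, of which 12 were shared, or 92.3% of the genes of miR171d/e/i/j and 80.0% of those of miR171b. The 3 genes of miR171b without a site of miR171d/e/i/j were GRMZM2G060265, a GRAS gene listed for miR171b alone, GRMZM2G021471, annotated as a fibronectin type III domain protein, and GRMZM2G521781, without an annotation. GRMZM2G055263, a GRAS gene, was listed for miR171d/e/i/j, miR171a, miR171n and miR171h/k but not for miR171b or miR171f. miR171h/k had sites in 2 genes only, this one and GRMZM2G040192, annotated as a calcineurin-like phosphoesterase. miR171c had 9 genes, among them GRMZM2G022088, a Sec14p-like lipid transfer protein listed for no other member.

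The frame carried over to the predicted sites. On GRMZM2G037792_T01 the site of miR171d/e/i/j ran from base 1322 to 1342 of the transcript, with base 1333 opposite base 10 of the miRNA. The site of miR171f ran from 1319 to 1339, with base 1330 opposite base 10. On GRMZM5G825321_T01, another GRAS transcript, these bases were 518 and 515. The position lay 3 nt upstream for both miR171b and miR171f on all 15 transcripts that they share with miR171d/e/i/j, and at the same base for the other sequences of the first frame. miR171b, miR171f and miR171d/e/i/j were thus listed for nearly the same GRAS transcripts, at positions 3 nt apart, while their reads changed by different factors between MS and PS.

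**Figure D5:**
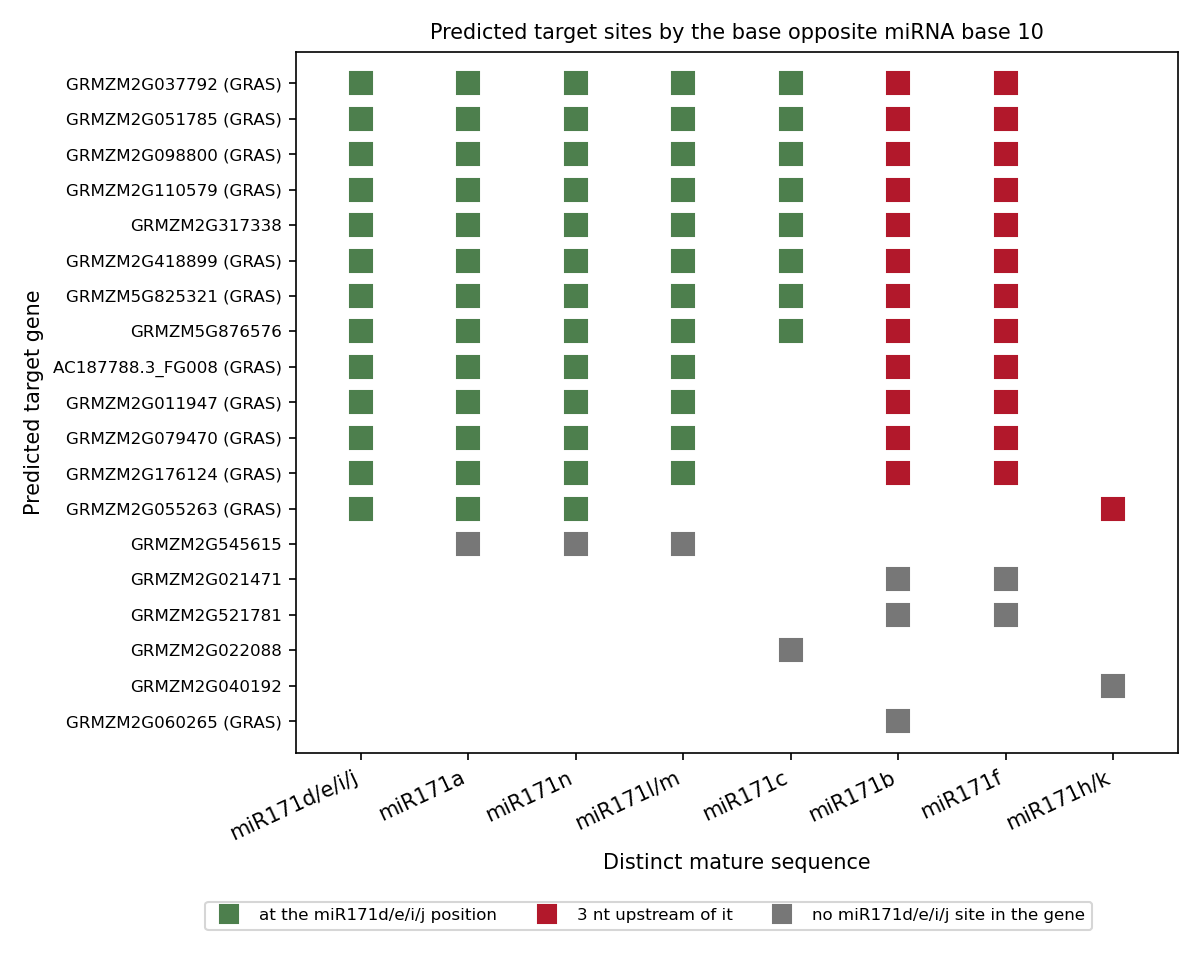
Predicted target genes (rows) of the 8 sequences (columns), with a square for each listed site; green is the position of miR171d/e/i/j opposite base 10, red is 3 nt upstream of it, and grey is a gene without a miR171d/e/i/j site. Of the 19 genes, 12 are shared by miR171d/e/i/j with miR171b and miR171f, each at 2 positions.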

How the data were processed

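Small RNA of 18 to 30 nt from 4 maize B73 tissues was sequenced by the authors. They aligned clean reads to the B73 genome (RefGen_2v) with SOAP, discarded ribosomal, transfer and small nucleolar RNA, and searched miRBase 18 with Blastn. Versions of these tools are not given in the sources used here. The deposited counts are whole reads per named miRNA, to which the authors added variants of up to 2 bp in length. The deposited TPM values are these counts scaled by the clean reads of the library, without length, from which the depths were derived, and TPM computed again differed from them by 0. The deposited p-values are the authors' own tests between libraries and were not used. The number of columns with values per sample that were not used was 0.

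Known sequences were counted once, by the name with the most reads. Fisher's exact test (2-sided) set the reads of a sequence in 2 libraries against all other clean reads, with Benjamini-Hochberg adjustment over all known sequences with a read, in 4 comparisons. Outside the comparison of silks, a call needed p under 0.01 and a log2 ratio beyond 1.5 in either direction. Where Fisher's p was too small for the software to represent, only the interval is given. Counts of 0 were set to 3 reads, and pairs of counts both at or under 3 got no ratio. Sequences that matched over 18 nt or more and whose starts lay no more than 2 nt apart were taken to share reads. With 1 library per tissue no count model could be fitted, so edgeR 4.0.16 and DESeq2 1.42.0 (R 4.3.3) gave scaling factors only. Other values came from Python 3.11.15 with NumPy 2.4.6, SciPy 1.17.1 and matplotlib 3.10.9. The test was tried on simulated counts.

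The text names every zma-miR171 sequence and, for miR171b and miR171d/e/i/j, the 3 sequences of other families nearest in profile. miR169f/g/h and the families set beside miR171 by their spread were named after their values were seen. The members and lists were chosen with earlier results of these data known. Alternatives covered the scaling, the test, a minimum of 10 reads, 1 added read, the mean over names, the criterion on pollen counts, the sum of all sequences and the scale of profiles.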

Additional observations from a re-analysis of the deposited data

How the results depend on the processing

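Of 188 log2 ratios of members and of the family under alternatives, 167 kept their sign, and 5 ratios of reads present in both libraries turned. The other 16, with 0 reads set to 3, fell below 0 and then gave no direction. Against clean reads, the total of known reads, TMM and the median ratio shifted every log2 ratio by -0.16, -0.25 and 0.45 in PS against MS, and by -2.56, -3.36 and -3.19 in MS against MP. In PS against GP the shifts were -3.11, -3.11 and -3.42, and in GP against MP 0.39, -0.50 and 0.68. The members called came to 4 instead of 2 in PS against MS under the median ratio only, to 1 instead of 3 in MS against MP and to 3 instead of 7 in PS against GP under each scaling. In the same order, the log2 ratio of the family, 2.18 in PS against MS, became 2.02, 1.93 and 2.63, and that of GP against MP, 0.43, became 0.82, -0.07 and 1.11. In MS against MP, 7.66 became 5.10, 4.30 and 4.47, and in PS against GP, 9.41 became 6.30, 6.30 and 5.99 (TMM and the median ratio for the family were chosen after seeing the data). Besides the family under TMM in GP against MP, direction turned for miR171d/e/i/j in that comparison under TMM (-0.16) and for miR171h/k in PS against GP (-0.0873, -0.0868 and -0.40), none of which was called. The 16 ratios with 0 reads set to 3 came from other scalings of miR171a, miR171b, miR171c, miR171l/m and miR171n between silks and pollen. Summing all 8 sequences, shared reads included, gave 4176 TPM in PS. Taking every miR171b read as also counted for miR171d, a setting chosen after seeing the data, gave 1837 TPM in PS and family log2 ratios of 1.48 in PS against MS and 8.75 in PS against GP. The count without a p limit in PS against MS, 3 members, was also added after seeing the data. With miR171f in place of miR171b, the ratio to miR171d/e/i/j changed 798-fold instead of 57.8-fold. The chi-square test, a minimum of 10 reads (6 members in PS against GP), 1 added read, the mean over names and the pollen criterion kept the members' counts within 1.5 times. The least abundant members, with 2 to 34 reads in silks, are limited by depth. No paired analysis was possible because each tissue had 1 library.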
